A study of Arabidopsis thaliana with 6 samples.

Results

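The 10 loci were followed that encode transcription factors of the root stem-cell niche and root cap of Arabidopsis thaliana: the AP2-domain genes PLT1, PLT2, PLT3 and BBM, the homeobox gene WOX5, the GRAS-domain genes SHR and SCR, and the NAC-domain genes SMB, BRN1 and FEZ. They were taken by locus name, and are 10 of the 26185 loci with a read in at least 1 of 6 libraries. All 10 had at least 1 read. The libraries were made from whole 3-day-old etiolated seedlings of the Col-0 accession, grown in darkness at 22 °C after imbibition at 4 °C for 3 days and a short light exposure, with 2 biological repeats per group. Col_Kyn was wild-type Col-0 on MS, a mineral culture medium, with kynurenine added to the medium. Its amount is written as 25 mM in the labels, and whether mM is right could not be settled from them. Kynurenine is known as an inhibitor of TAA1 and the TAR enzymes, which carry tryptophan towards the auxin indole-3-acetic acid. The wei8tar2_MS group was a line written as wei8-/- tar2+/- on MS, in the same accession, WEI8 being another name of TAA1. A line heterozygous for tar2 gives progeny of mixed genotype, and the labels do not say which of its seedlings were taken. Col_MS was wild-type Col-0 on MS alone. Col_Kyn and wei8tar2_MS are called auxin-deficient below after the title of the series, and auxin itself was not measured in these files. Seedlings were ground whole, so fewer cells of a type and less RNA per cell cannot be told apart in any value below.

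In the root tip, slowly dividing cells of the quiescent centre keep the surrounding stem cells undifferentiated. The PLT proteins act in a gradient that follows auxin and sets stem-cell and meristem identity, WOX5 is made in the quiescent centre and holds the stem cells of the distal root cap, and SHR moves out of the stele to switch on SCR in the endodermis and quiescent centre. FEZ promotes root-cap stem-cell divisions, SMB opposes FEZ and drives lateral root-cap maturation, and BRN1 acts with SMB and BRN2 as cap cells mature.

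The 10 genes lie on chromosomes 1, 3, 4 and 5 of the TAIR10.1 RefSeq annotation, to which the deposited loci were matched by name. PLT1 (AT3G20840) spans 7300444 to 7303693 on chromosome 3, and PLT2 (AT1G51190) spans 18977176 to 18980618 on chromosome 1. PLT3 (AT5G10510, listed there as AIL6) spans 3315401 to 3320323 on chromosome 5, and BBM (AT5G17430) spans 5742393 to 5745748 on chromosome 5. WOX5 (AT3G11260) spans 3527280 to 3528440 and SCR (AT3G54220) spans 20069987 to 20072878, both on chromosome 3. SHR (AT4G37650) spans 17691687 to 17693859 on chromosome 4. SMB (AT1G79580) spans 29940803 to 29943713, BRN1 (AT1G33280, listed as NAC015) spans 12072611 to 12073965, and FEZ (AT1G26870) spans 9312936 to 9315122, all on chromosome 1. PLT3 was the only member that overlapped another annotated gene, sharing 454 bases at its end with the opposite-strand gene AT5G10520. No strand setting of the counting is given in the sources used here, so reads from the shared bases could belong to either gene. That neighbour stood at a log2 fold change of -0.18 in Col_Kyn and -0.0005 in wei8tar2_MS, each against Col_MS.

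The 4 tested members furthest below Col_MS on the log2 scale in wei8tar2_MS were PLT1, SMB, PLT2 and PLT3, and the 250 bases before each annotated start are shown because auxin response factors bind short TGTC elements. They are given in gene direction from the TAIR10.1 genome, and capitals mark a match to TGTCTC or TGTCGG on either strand.
PLT1, chr3:7300194-7300443, plus strand: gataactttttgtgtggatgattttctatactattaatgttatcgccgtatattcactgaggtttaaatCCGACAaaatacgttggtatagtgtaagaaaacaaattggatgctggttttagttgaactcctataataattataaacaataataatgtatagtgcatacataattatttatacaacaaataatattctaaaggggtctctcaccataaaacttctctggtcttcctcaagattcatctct
PLT2, chr1:18976926-18977175, plus strand: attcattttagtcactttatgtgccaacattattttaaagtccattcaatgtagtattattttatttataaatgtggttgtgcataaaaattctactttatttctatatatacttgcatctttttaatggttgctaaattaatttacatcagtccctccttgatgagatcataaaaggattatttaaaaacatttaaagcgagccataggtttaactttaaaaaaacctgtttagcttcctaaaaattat
PLT3, chr5:3315151-3315400, plus strand: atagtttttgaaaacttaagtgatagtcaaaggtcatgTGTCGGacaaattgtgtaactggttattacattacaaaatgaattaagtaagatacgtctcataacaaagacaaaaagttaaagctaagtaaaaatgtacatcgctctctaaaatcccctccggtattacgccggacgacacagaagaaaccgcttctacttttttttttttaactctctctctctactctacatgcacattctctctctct
SMB, chr1:29943714-29943963, minus strand: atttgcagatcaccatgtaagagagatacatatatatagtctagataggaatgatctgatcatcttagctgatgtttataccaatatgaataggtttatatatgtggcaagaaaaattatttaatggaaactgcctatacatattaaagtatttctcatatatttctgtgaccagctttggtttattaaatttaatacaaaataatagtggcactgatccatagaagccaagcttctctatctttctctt
PLT1 held TGTCGG on the opposite strand, beginning 181 bases before the start, and PLT3 held it on the gene's own strand, 212 bases before. PLT2 and SMB held neither motif in this window. Of all 10 members 3 held one of the motifs, the remaining one being BBM with TGTCTC on the opposite strand, 195 bases before its start. Over 27561 promoters of protein-coding genes, windows of the same 250 bases held TGTCTC in 10.91%, TGTCGG in 4.16% and either motif in 14.64%, counting both strands. A match in these letters is a description and not a binding site.

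Library totals ran between 18.1 and 31.8 M uniquely mapped reads (M standing for 1e6), and a count of 0, taken as up to 3 reads, allows 0.0943 to 0.165 CPM (counts scaled to a library total of 1e6) according to the library. Levels below are CPM further scaled with TMM factors, which correct for differences in composition between libraries. TAA1, the gene mutated in wei8, had 7.89 and 8.36 CPM in wei8tar2_MS, 38.4 and 41.5 CPM in Col_Kyn, and 37.8 and 38.7 CPM in Col_MS, and fell in wei8tar2_MS (log2 fold change -2.24, edgeR adjusted p = 0.000562). TAR2 had 2.90 and 2.01 CPM in wei8tar2_MS against 10.1 and 8.11 CPM in Col_MS, a fall (-1.88, adjusted p = 0.0301) that did not pass without Col_MS replicate 1 or either wei8tar2_MS library, and TAR1 had no read in any library. The 2 replicates differed beyond sampling noise in every group, with a chi-square per degree of freedom of 27.5 in Col_Kyn, 5.10 in wei8tar2_MS and 37.6 in Col_MS. Root tissue was read in every library: all 10 root hair and epidermis markers, all 8 endodermis markers and all 7 root stele markers had reads throughout. Because the labels tie no replicate to a culture or day, p-values measure the spread between these libraries.

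Member genes differed widely in level. Per length, in the deposited RPKM values (reads scaled by listed gene length and by library total), SCR and SHR stood far above the other 8 in every group. SCR averaged 19.4 ± 0.306 RPKM in Col_Kyn, 20.1 ± 0.369 RPKM in wei8tar2_MS and 19.95 ± 2.78 RPKM in Col_MS (SD, n = 2 each). SHR averaged 16.7 ± 1.59 RPKM in Col_Kyn, 17.1 ± 1.83 RPKM in wei8tar2_MS and 13.3 ± 1.16 RPKM in Col_MS. FEZ was lowest in every group, at 0.00739 ± 0.0105 RPKM in Col_Kyn, 0.00935 ± 0.0132 RPKM in wei8tar2_MS and 0.103 ± 0.0281 RPKM in Col_MS. In Col_Kyn the order below SCR and SHR was PLT3, WOX5, BRN1, BBM, SMB, PLT2, PLT1 and FEZ, and the neighbours PLT3 and WOX5, WOX5 and BRN1, and PLT2 and PLT1 overlapped in range. In wei8tar2_MS the order below SHR was WOX5, PLT3, BRN1, BBM, SMB, PLT1, PLT2 and FEZ, and PLT3 with BRN1 and PLT1 with PLT2 overlapped. In Col_MS it was PLT3, BRN1, WOX5, SMB, PLT1, BBM, PLT2 and FEZ, and each neighbouring pair from PLT3 down to BBM overlapped. WOX5 was thus rank 3 of 10 in wei8tar2_MS, with 2.26 ± 0.808 RPKM, rank 4 in Col_Kyn, with 0.591 ± 0.163 RPKM, and rank 5 in Col_MS, with 0.819 ± 0.418 RPKM. The listed lengths of multi-exon genes exceed their summed exons, for PLT1 by 3018 against 2368 bases, so RPKM of such genes is understated relative to genes with little intron. Per kilobase of annotated exon WOX5 stayed at rank 3 in wei8tar2_MS, at 1.84, but was rank 5 in Col_Kyn, at 0.482, just below BRN1 at 0.493, and rank 6 in Col_MS, at 0.668, below SMB at 0.901.

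**Figure D1:**
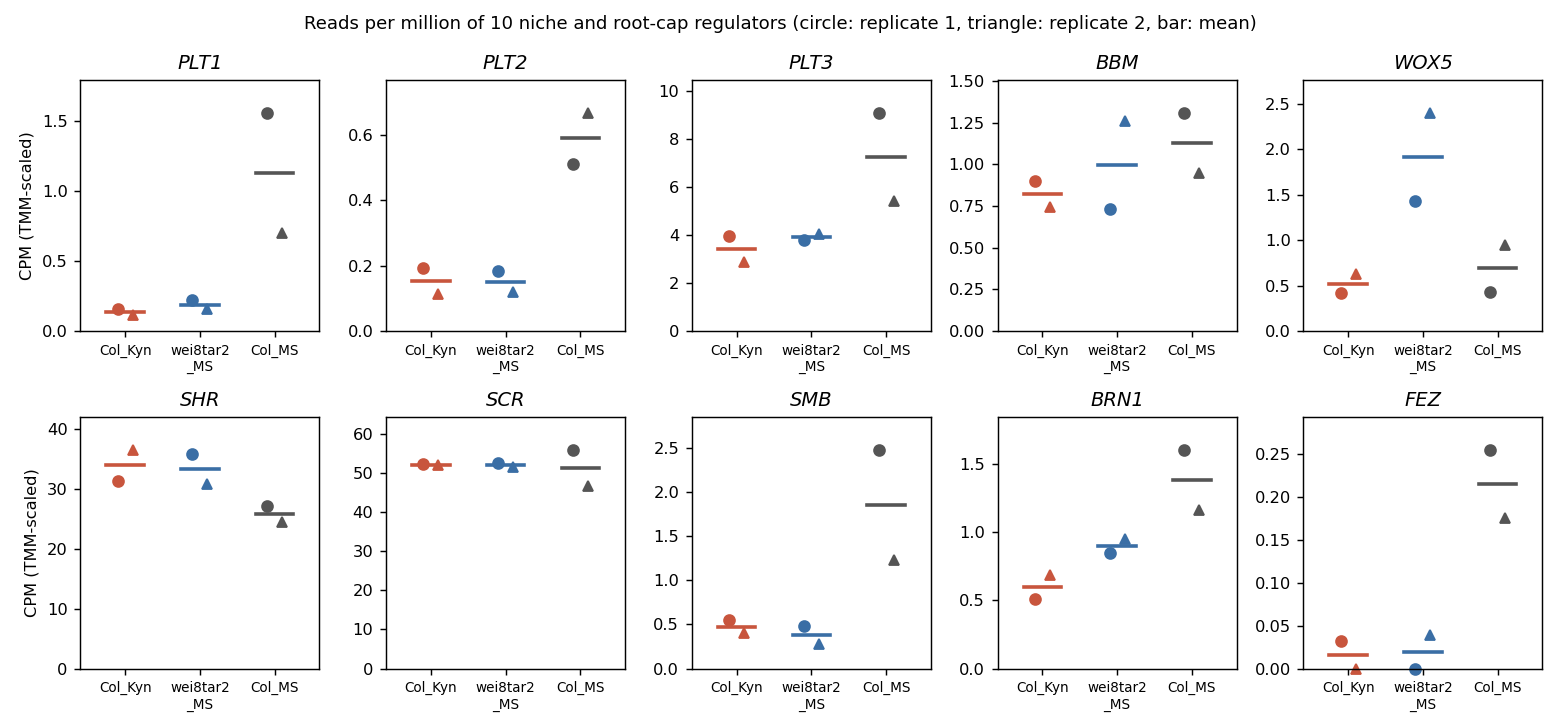
TMM-scaled CPM of the 10 genes in each library (circles replicate 1, triangles replicate 2) with the group mean as a bar, for Col_Kyn, wei8tar2_MS and Col_MS; each panel has its own axis starting at 0. PLT1, PLT2, PLT3, SMB, BRN1 and FEZ lie lower in all 4 Col_Kyn and wei8tar2_MS libraries than in both Col_MS libraries. SHR lies higher, and WOX5 is highest in wei8tar2_MS. Of tested genes, 23.4% lay below both Col_MS libraries in Col_Kyn and 29% in wei8tar2_MS, and 20.2% and 26.6% lay above. PLT1 and PLT2 were tested only through their reads in Col_MS, and FEZ had too few reads to be tested.

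The comparisons asked how these regulators differed when auxin synthesis was inhibited chemically or lowered genetically. Both use the same Col_MS libraries, so a shared departure of Col_MS enters both. By edgeR's quasi-likelihood test on all genes, none of the 9 tested members passed an adjusted p of 0.05 in either comparison, where 0.366% of the 21326 tested genes did in Col_Kyn and 1.08% in wei8tar2_MS. At an unadjusted p under 0.05, 5 members were lower and 1 higher in Col_Kyn, where 8.92% of tested genes were lower and 8.07% higher. At the same level 4 members were lower and 2 higher in wei8tar2_MS, where 11.3% of tested genes were lower and 9.37% higher. DESeq2 called no member in Col_Kyn, where it called 3.4% of genes, and 1, SMB, in wei8tar2_MS, where it called 5.93%. Calls by limma-voom included no member, among 0.234% of genes in Col_Kyn and 1.01% in wei8tar2_MS. FEZ had too few reads to be tested, and PLT1 and PLT2 reached the filter on low counts only through Col_MS, so that they had to be lower in the other groups and their share of the counts is no support. Without PLT1 and PLT2, the median log2 fold change of the other 7 tested members was -0.45 in Col_Kyn and -0.18 in wei8tar2_MS, beside -0.02 over all tested genes in each.

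Levels of all 10 members are set out here, FEZ included, while the shares beside them are over tested genes, which leave FEZ out. In Col_Kyn, PLT1, PLT2, PLT3, BBM, SMB, BRN1 and FEZ lay below both Col_MS libraries, as did 23.4% of tested genes, and SHR lay above both, as did 20.2%. In wei8tar2_MS, PLT1, PLT2, PLT3, SMB, BRN1 and FEZ lay below both Col_MS libraries, as did 29% of tested genes, and SHR and WOX5 lay above both, as did 26.6%. SCR overlapped Col_MS in both comparisons. Of the 9 tested members, 6 lay below both Col_MS libraries and 1 above in Col_Kyn, and 5 below and 2 above in wei8tar2_MS. PLT1 and PLT2 are among those below, and were tested only through Col_MS.

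**Figure D2:**
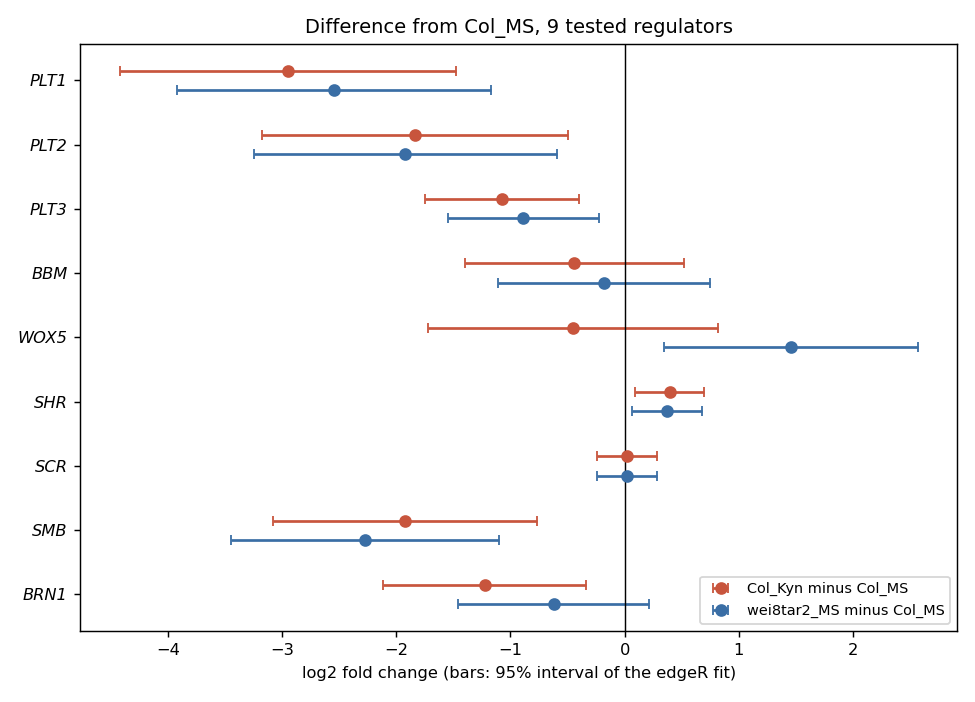
log2 fold change of the 9 tested members in Col_Kyn (upper, red) and wei8tar2_MS (lower, blue) against Col_MS, with the 95% interval of the edgeR fit as bars. PLT1, PLT2 and SMB are furthest below 0 in both comparisons, SCR sits at 0.02 in both, and WOX5 is at -0.45 in Col_Kyn and 1.46 in wei8tar2_MS. PLT1 and PLT2 were tested only through their reads in Col_MS.

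Among the PLT genes, PLT1, which with PLT2 is needed for the root stem-cell niche, had 0.160 and 0.114 CPM in Col_Kyn (5 and 2 reads), 0.220 and 0.158 CPM in wei8tar2_MS (6 and 4 reads), and 1.56 and 0.702 CPM in Col_MS (43 and 20 reads). All 4 libraries of the auxin-deficient groups lay at or near the level that a count of 0 allows, and Col_MS replicate 1 was the highest. The log2 fold change was -2.95 ± 0.63 in Col_Kyn (SE, 95% interval -4.42 to -1.48, edgeR adjusted p = 0.107) and -2.55 ± 0.59 in wei8tar2_MS (-3.92 to -1.17, adjusted p = 0.0785). Without Col_MS replicate 2, the lower of that pair, PLT1 stood at -3.39 in Col_Kyn and -2.98 in wei8tar2_MS. Without Col_MS replicate 1 it stood at -2.26 in Col_Kyn and -1.86 in wei8tar2_MS. In such fits the lone Col_MS library is assumed to vary like the other groups. PLT1 reached the filter on low counts only through Col_MS, so its direction in any of these fits is no support.

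PLT2, which overlaps with PLT1 in function, had 0.192 and 0.114 CPM in Col_Kyn (6 and 2 reads), 0.184 and 0.118 CPM in wei8tar2_MS (5 and 3 reads), and 0.509 and 0.667 CPM in Col_MS (14 and 19 reads). Both auxin-deficient groups lay below Col_MS without overlap, and here Col_MS replicate 2 was the higher one. On the log2 scale it stood at -1.83 ± 0.57 in Col_Kyn (edgeR adjusted p = 0.19) and -1.92 ± 0.57 in wei8tar2_MS (adjusted p = 0.124). PLT1 had 0.834 and 1.00 reads per PLT2 read in Col_Kyn, 1.20 and 1.33 in wei8tar2_MS, and 3.07 and 1.05 in Col_MS. The ratio was high in Col_MS replicate 1 alone.

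PLT3 was the most abundant PLT gene in every library. It had 3.94 and 2.86 CPM in Col_Kyn (123 and 50 reads), 3.78 and 4.06 CPM in wei8tar2_MS (103 and 103 reads), and 9.09 and 5.41 CPM in Col_MS (250 and 154 reads). The groups did not overlap, but Col_MS replicate 2 was nearer to the highest wei8tar2_MS library than to Col_MS replicate 1. The log2 fold change was -1.07 ± 0.29 in Col_Kyn (edgeR adjusted p = 0.151) and -0.89 ± 0.28 in wei8tar2_MS (adjusted p = 0.144). Without Col_MS replicate 2 it stood at -1.38 in Col_Kyn and -1.19 in wei8tar2_MS. Without Col_MS replicate 1 it stood at -0.65 in Col_Kyn and -0.46 in wei8tar2_MS.

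BBM, known for inducing embryos when overexpressed and also active in the root niche, had 0.897 and 0.744 CPM in Col_Kyn, 0.734 and 1.26 CPM in wei8tar2_MS, and 1.31 and 0.948 CPM in Col_MS. Its Col_Kyn libraries lay just below both Col_MS libraries, and its wei8tar2_MS libraries overlapped them. Fold changes on the log2 scale were -0.44 in Col_Kyn (95% interval -1.40 to 0.52, edgeR adjusted p = 0.625) and -0.18 in wei8tar2_MS (-1.11 to 0.75, adjusted p = 0.838). Summed over PLT1, PLT2, PLT3 and BBM, the level was 4.51 ± 0.960 CPM in Col_Kyn, 5.26 ± 0.480 CPM in wei8tar2_MS and 10.1 ± 3.36 CPM in Col_MS (SD, n = 2 each), most of it from PLT3.

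WOX5 was the member that differed most between the 2 auxin-deficient groups. It had 0.417 and 0.629 CPM in Col_Kyn (13 and 11 reads), 1.43 and 2.41 CPM in wei8tar2_MS (39 and 61 reads), and 0.437 and 0.948 CPM in Col_MS (12 and 27 reads). Both wei8tar2_MS libraries were above all others, whereas Col_Kyn and Col_MS overlapped. The log2 fold change was 1.46 ± 0.47 in wei8tar2_MS (95% interval 0.35 to 2.56, edgeR adjusted p = 0.149) and -0.45 ± 0.55 in Col_Kyn (-1.73 to 0.82, adjusted p = 0.71). In wei8tar2_MS it was 2.15 without Col_MS replicate 2 (adjusted p = 0.0641) and 1.01 without Col_MS replicate 1 (adjusted p = 0.348). Set directly against Col_Kyn, wei8tar2_MS stood at 1.91 ± 0.51 (0.73 to 3.10, unadjusted p = 0.00622 and adjusted p = 0.789 by edgeR), in a comparison where 0.0281% of genes passed and 2.5% were higher at an unadjusted p under 0.05. That difference therefore did not pass over all genes, although both libraries of wei8tar2_MS were higher than both of Col_Kyn, as for 16.8% of tested genes. Relative to PLT3, WOX5 had 0.106 and 0.22 reads per PLT3 read in Col_Kyn, 0.379 and 0.592 in wei8tar2_MS, and 0.048 and 0.175 in Col_MS. Within Col_MS, WOX5 ran opposite to PLT1, PLT3 and SMB, being lower in replicate 1.

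SHR, the mobile GRAS factor of the stele, had 31.3 and 36.5 CPM in Col_Kyn, 35.8 and 30.8 CPM in wei8tar2_MS, and 27.1 and 24.4 CPM in Col_MS. Every Col_Kyn and wei8tar2_MS library was above both Col_MS libraries. Against Col_MS its log2 fold change was 0.39 ± 0.13 in Col_Kyn (95% interval 0.09 to 0.70, edgeR adjusted p = 0.208) and 0.37 ± 0.13 in wei8tar2_MS (0.07 to 0.68, adjusted p = 0.169). SCR, which SHR activates and which restrains SHR movement, had 52.3 and 52.0 CPM in Col_Kyn, 52.7 and 51.4 CPM in wei8tar2_MS, and 55.9 and 46.8 CPM in Col_MS. All Col_Kyn and wei8tar2_MS values of SCR lay between the 2 Col_MS values. The log2 fold change of SCR was 0.02 ± 0.11 in both Col_Kyn (-0.24 to 0.29) and wei8tar2_MS (-0.24 to 0.28), and its sign turned in some alternative fits.

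The ratio of SHR to SCR reads was read per library and was not tested. SHR itself lay above both Col_MS libraries, as did 20.2% of tested genes in Col_Kyn and 26.6% in wei8tar2_MS. SHR had 0.599 and 0.701 reads per SCR read in Col_Kyn, 0.68 and 0.6 in wei8tar2_MS, and 0.485 and 0.522 in Col_MS, so that neither auxin-deficient group overlapped Col_MS. SHR and SCR made up 92.6% and 94.1% of the reads of all 10 members in Col_Kyn, 92.0% and 89.9% in wei8tar2_MS, and 82.8% and 86.4% in Col_MS. The PLT genes made up 5.75% and 4.07% in Col_Kyn, 5.12% and 6.12% in wei8tar2_MS, and 12.5% and 9.37% in Col_MS. Summed, SHR and SCR reached 86.1 ± 3.48 CPM in Col_Kyn, 85.4 ± 4.43 CPM in wei8tar2_MS and 77.1 ± 8.37 CPM in Col_MS.

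Of the root-cap NAC genes, SMB had 0.545 and 0.400 CPM in Col_Kyn (17 and 7 reads), 0.477 and 0.276 CPM in wei8tar2_MS (13 and 7 reads), and 2.47 and 1.23 CPM in Col_MS (68 and 35 reads). All Col_Kyn and wei8tar2_MS libraries were below both Col_MS libraries, and Col_MS replicate 1 was the highest. The log2 fold change was -1.92 ± 0.50 in Col_Kyn (95% interval -3.08 to -0.77, edgeR adjusted p = 0.14) and -2.27 ± 0.50 in wei8tar2_MS (-3.45 to -1.10, adjusted p = 0.0746). In wei8tar2_MS it passed by DESeq2 (adjusted p = 0.0232) and by edgeR without a filter (0.033), but not by limma-voom (0.0935). It stood there at -2.66 without Col_MS replicate 2 and -1.68 without Col_MS replicate 1. Over its 13 alternatives the adjusted p in that comparison ran between 0.0232 and 0.547. In Col_Kyn SMB stood at -2.32 without Col_MS replicate 2 and at -1.33 without Col_MS replicate 1.

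BRN1 had 0.513 and 0.686 CPM in Col_Kyn, 0.844 and 0.946 CPM in wei8tar2_MS, and 1.60 and 1.16 CPM in Col_MS. The 3 groups were in order with no overlap, Col_Kyn lowest and Col_MS highest. Of tested genes, 29% lay below both Col_MS libraries in wei8tar2_MS, and 16.8% were higher in wei8tar2_MS than in Col_Kyn without overlap. On the log2 scale BRN1 stood at -1.23 ± 0.38 in Col_Kyn (edgeR adjusted p = 0.189), -0.62 ± 0.36 in wei8tar2_MS (adjusted p = 0.369), and 0.61 ± 0.40 in wei8tar2_MS against Col_Kyn (adjusted p = 1.00). SMB had 1.06 and 0.583 reads per BRN1 read in Col_Kyn, 0.565 and 0.292 in wei8tar2_MS, and 1.55 and 1.06 in Col_MS. The SMB to BRN1 ratio was lower in wei8tar2_MS than in Col_MS without overlap, and was not tested. Its highest wei8tar2_MS value, 0.565, and lowest Col_Kyn value, 0.583, came from 13 over 23 and 7 over 12 reads. Counts this low do not set these groups apart.

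FEZ had 1 and 0 reads in Col_Kyn, 0 and 1 reads in wei8tar2_MS, and 7 and 5 reads in Col_MS. Both Col_MS libraries exceeded the others, on counts too low for the test. The ratio of its summed counts, scaled to library totals multiplied by the TMM factors, was 0.0958 in Col_Kyn over Col_MS (95% counting interval 0.00224 to 0.647) and 0.0887 in wei8tar2_MS over Col_MS (0.00207 to 0.599). These intervals cover counting error only. Summed over the 3 NAC genes, the level was 1.09 ± 0.00141 CPM in Col_Kyn, 1.29 ± 0.0424 CPM in wei8tar2_MS and 3.45 ± 1.25 CPM in Col_MS (SD, n = 2 each). The Col_Kyn sums rest on 34 and 19 reads and those of wei8tar2_MS on 36 and 32. Their small SDs are those of 2 values and do not measure counting error.

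**Figure D3:**
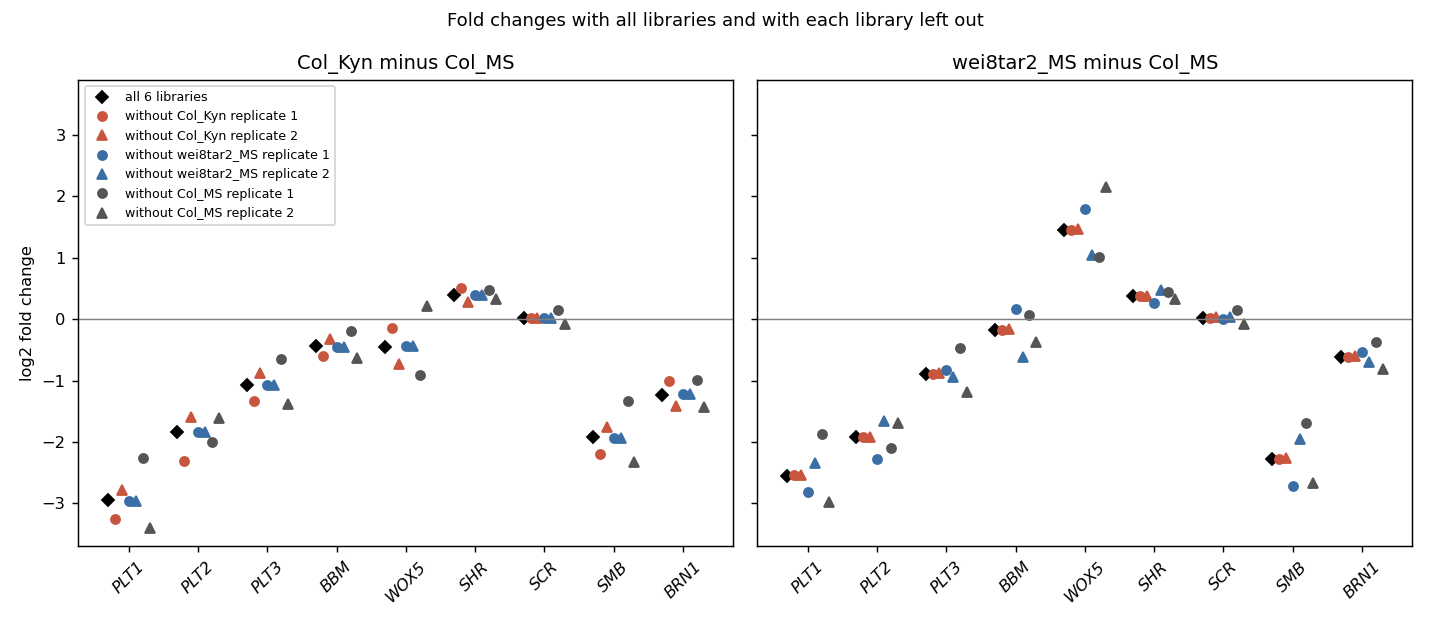
log2 fold change of each tested member against Col_MS with all 6 libraries (black diamonds) and with each library left out in turn (circles for a left-out replicate 1, triangles for a replicate 2, coloured by group). PLT3, SMB and BRN1 stay below 0 throughout, SHR stays above 0, and WOX5 in Col_Kyn, BBM in wei8tar2_MS and SCR in both (to -0.082 in Col_Kyn and -0.0749 in wei8tar2_MS) cross 0. PLT1 and PLT2 also stay below 0, but they reached the filter only through Col_MS, so their sign is no support.

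The 2 auxin-deficient groups were also set against each other directly. For the other 7 tested members, leaving out WOX5 and BRN1, the log2 fold changes of wei8tar2_MS over Col_Kyn lay between -0.35 for SMB and 0.40 for PLT1, and no other member had libraries apart. The intervals of the low genes were wide, at -1.44 to 2.25 for PLT1, -1.72 to 1.54 for PLT2 and -1.69 to 0.99 for SMB. SHR was more tightly bounded, at -0.33 to 0.28, as was SCR, at -0.27 to 0.26.

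Col_MS replicate 1 exceeded replicate 2 by 1.05 log2 units for PLT1, 0.95 for SMB, 0.74 for PLT3, 0.43 for BRN1 and 0.43 for BBM, on log2(CPM + 0.1), whereas the same gap was -0.33 for PLT2 and -0.97 for WOX5. Over all tested genes the median gap was 0.0005. Embryo and seed markers also differed within the group, by a median of 0.97, and their 8 genes summed to 22.2 and 4.00 CPM in Col_Kyn, 31.0 and 20.9 CPM in wei8tar2_MS, and 60.8 and 17.2 CPM in Col_MS. Against Col_MS, the 5 tested genes of that list had median log2 fold changes of -2.09 in Col_Kyn and -0.64 in wei8tar2_MS. None of the 5 passed by edgeR. LEC1 and LEC2, embryo identity factors, had few or no reads and were not tested. Root hair and epidermis markers ran the other way within Col_MS, with a median gap of -0.39. What part these differences have in the values of PLT1, PLT3, SMB and WOX5 was not tested.

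**Figure D4:**
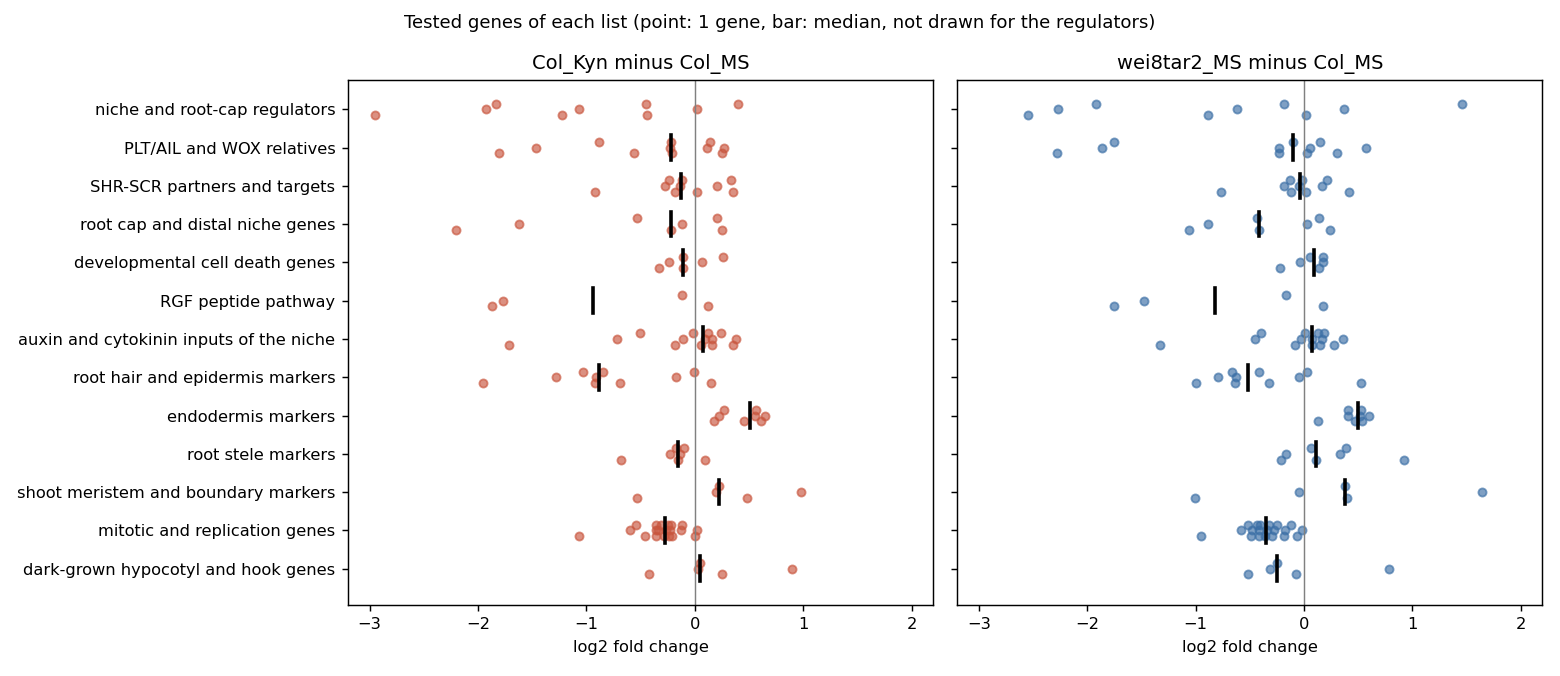
log2 fold change against Col_MS of every tested gene in 13 lists, Col_Kyn on the left and wei8tar2_MS on the right; a point is 1 gene and the black bar the list's median, drawn for all lists but the regulators, whose points include PLT1 and PLT2, tested only through their reads in Col_MS. Endodermis markers lie above 0 in both comparisons; the embryo and seed markers are left out because 1 gene reaches -8.09.

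Related genes were read from lists of the same families and pathways. Of 16 PLT/AIL and WOX relatives 11 were tested and none passed by edgeR in either comparison, with medians of -0.22 in Col_Kyn and -0.10 in wei8tar2_MS. PLT5, a PLT gene of lateral organs and lateral roots, had the lowest value of them in Col_Kyn, with levels of 2.76 and 3.09 CPM in Col_Kyn, 2.72 and 3.31 CPM in wei8tar2_MS, and 14.7 and 5.69 CPM in Col_MS. Its log2 fold change was -1.81 in Col_Kyn (edgeR adjusted p = 0.124) and -1.76 in wei8tar2_MS (adjusted p = 0.0814), and DESeq2 called it in both. WOX11, a WOX gene of adventitious rooting, was at -2.28 in wei8tar2_MS (edgeR adjusted p = 0.129, DESeq2 adjusted p = 0.046). Of 10 SHR and SCR partners and targets, all tested, none passed by edgeR, with medians of -0.13 in Col_Kyn and -0.03 in wei8tar2_MS. Their extremes were MGP, a zinc-finger partner of SHR and SCR, at -0.92 in Col_Kyn and -0.77 in wei8tar2_MS, and JKD, the related factor that helps confine SHR, at 0.35 in Col_Kyn and 0.42 in wei8tar2_MS, where DESeq2 called it (adjusted p = 0.0249). JKD thus stood on the same side as SHR in both comparisons.

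Of 9 further root-cap and distal-niche genes 7 were tested, with medians of -0.22 in Col_Kyn and -0.42 in wei8tar2_MS. AT1G65570, annotated as a polygalacturonase, fell in Col_Kyn to 4.07 and 2.86 CPM, against 10.8 and 10.9 CPM in Col_MS (-1.62, edgeR adjusted p = 0.0307), and was at -1.06 in wei8tar2_MS (edgeR adjusted p = 0.0548, DESeq2 adjusted p = 0.0028). BRN2, the closest relative of BRN1, was at -2.21 in Col_Kyn (adjusted p = 0.16) and -0.88 in wei8tar2_MS (adjusted p = 0.379). BRN2 had 0.0961 and 0.400 CPM in Col_Kyn, 0.624 and 0.473 CPM in wei8tar2_MS, and 1.055 and 0.983 CPM in Col_MS. Its lower Col_Kyn value lay near the level that a count of 0 allows. Set directly against Col_Kyn, wei8tar2_MS passed by edgeR for neither BRN1 nor BRN2, so these low counts do not set the 2 groups apart. ARF10, an auxin response factor of the distal root, was at 0.25 in Col_Kyn and 0.24 in wei8tar2_MS. Of 6 developmental cell-death genes, a program that SMB and its relatives drive in the cap, none passed by edgeR or DESeq2, and the medians were -0.11 in Col_Kyn and 0.10 in wei8tar2_MS.

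In the list of RGF peptides, which act upstream of the PLT proteins, and receptor kinases, RGF1, RGF2 and RGF3 were too low to test. The 4 tested genes had medians of -0.94 in Col_Kyn and -0.82 in wei8tar2_MS, but did not move as one. The receptor kinase gene AT4G26540 was at 0.12 in Col_Kyn and 0.17 in wei8tar2_MS. TPST, also on the list, was at -0.12 in Col_Kyn and -0.17 in wei8tar2_MS, and neither gene passed by edgeR. The leucine-rich-repeat receptor kinase gene AT3G24240 fell in Col_Kyn (-1.77, edgeR adjusted p = 0.0424) and in wei8tar2_MS (-1.48, adjusted p = 0.0461). AT5G48940, another such kinase gene, fell in wei8tar2_MS (-1.75, adjusted p = 0.046) and was at -1.87 in Col_Kyn (edgeR adjusted p = 0.0567), where DESeq2 called it. Among 14 auxin and cytokinin inputs of the niche, all tested, the medians were 0.07 in both comparisons, and TMO7, a small bHLH protein that moves into the future root apex in the embryo, fell in Col_Kyn (-1.71, adjusted p = 0.0414) and in wei8tar2_MS (-1.33, adjusted p = 0.0475). PIN2, an auxin exporter of the root, was at -0.45 in wei8tar2_MS (adjusted p = 0.247). The calls on AT1G65570, AT3G24240, AT5G48940 and TMO7, and that on HFR1 below, were all lost without Col_MS replicate 1 (edgeR adjusted p 0.0786 to 0.114) and without either wei8tar2_MS library (0.115 to 0.513), and those in Col_Kyn also without Col_Kyn replicate 2 (0.0979 to 0.152). Without Col_Kyn replicate 1 the Col_Kyn calls on AT3G24240 (0.0749), TMO7 (0.111) and HFR1 (0.11) were lost as well, and with library totals alone that on HFR1 (0.0546). Without Col_Kyn replicate 2 the wei8tar2_MS calls on AT5G48940 (0.0502), TMO7 (0.0515) and HFR1 (0.0534) were lost.

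Lists of other cell types and of division were read beside the members, and their part in the members' values was not tested. Of the 21326 tested genes, 11279 lay below 0 and 10046 above in Col_Kyn, and 11351 below and 9975 above in wei8tar2_MS. Endodermis markers, among them ESB1 and CASP1 of the Casparian strip, lay above 0 for 8 of 8 genes in both comparisons, with medians of 0.50 in Col_Kyn and 0.49 in wei8tar2_MS and none passing by edgeR, while DESeq2 called ESB1 and CASP1 in both. Their summed level was 912 and 943 CPM in Col_Kyn, 940 and 860.0 CPM in wei8tar2_MS, and 599 and 683 CPM in Col_MS. SHR lay on that side in both comparisons, while SCR, itself made in the endodermis, stood at 0.02. Root hair and epidermis markers had medians of -0.88 in Col_Kyn and -0.52 in wei8tar2_MS, summing to 124 and 130 CPM in Col_Kyn, 121 and 135 CPM in wei8tar2_MS, and 151 and 240 CPM in Col_MS. DESeq2 alone called PRP3 in both comparisons and COBL9 in Col_Kyn among them, all below 0. Root stele markers had medians of -0.16 in Col_Kyn and 0.11 in wei8tar2_MS, summing to 338 and 286 CPM in Col_Kyn, 341 and 342 CPM in wei8tar2_MS, and 359 and 335 CPM in Col_MS. Among them SKOR, a potassium channel gene of the stele, had 2.56 and 3.49 CPM in Col_Kyn, 8.19 and 10.01 CPM in wei8tar2_MS, and 4.29 and 5.27 CPM in Col_MS, with no overlap between groups. Its log2 fold change was -0.68 in Col_Kyn (edgeR adjusted p = 0.216), 0.93 in wei8tar2_MS (edgeR adjusted p = 0.0795, DESeq2 adjusted p = 0.0242) and 1.61 in wei8tar2_MS against Col_Kyn (edgeR adjusted p = 0.174, DESeq2 adjusted p = 9.2e-05). Of tested genes, 23.4% lay below both Col_MS libraries in Col_Kyn, and 26.6% lay above both in wei8tar2_MS. Shoot meristem and boundary markers had medians of 0.22 in Col_Kyn and 0.38 in wei8tar2_MS. Mitotic and replication genes lay below 0 for 19 of 20 in Col_Kyn and 20 of 20 in wei8tar2_MS, with medians of -0.28 in Col_Kyn and -0.35 in wei8tar2_MS and the lowest value for the cyclin CYCB1;1, at -1.07 in Col_Kyn and -0.95 in wei8tar2_MS, and none of the 20 passed by edgeR, while DESeq2 called CYCB1;1 in both. Of 5 dark-grown hypocotyl genes 4 lay above 0 in Col_Kyn, with a median of 0.05 (-0.01 with library totals alone), and 4 lay below 0 in wei8tar2_MS, with a median of -0.25. The list included HFR1, a light-signalling bHLH factor, which rose in Col_Kyn (0.89, edgeR adjusted p = 0.0458) and in wei8tar2_MS (0.79, adjusted p = 0.0461).

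Of the members, 4 averaged at least 1 CPM over the 6 libraries and were compared with other genes in pattern, by the root-mean-square difference of centred log2(CPM + 0.5) over the 6 libraries, where a smaller value is more alike. Nearest to PLT3 were AT4G02660, DLAH and EME1B, at 0.0657, 0.0702 and 0.0853. Nearest to WOX5 were bZIP58, AT5G67620 and MSRB7, at 0.186, 0.188 and 0.195, and 3 of 19412 genes lay within 0.2 of it. Nearest to SHR were AT1G62981, HSL2 and AT2G44290, at 0.0393, 0.044 and 0.0462. Nearest to SCR were GSK1, AT1G02890 and AT3G62940, at 0.0176, 0.0195 and 0.021, and 11240 of 19412 genes lay within 0.2 of it, SCR being nearly level across the libraries. The 6 libraries are few points, and likeness over them is a description.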

How the data were processed

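Per the submitters' processing notes, TopHat 1.3.0 and the TAIR10 build were used upstream. Per the file headers, each deposited table gives per locus a count of uniquely mapped reads and the authors' RPKM. RPKM recomputed from count, listed length and header total matched the deposited RPKM within a relative 8.48e-14. Which program counted, with which strand setting and annotation, is not given in the sources used here. Loci not listed in a library were taken as 0. Of 26185 loci with a read, 25911 were found in the TAIR10.1 RefSeq annotation, which gave symbols, positions and promoter sequences. No coordinates were converted.

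The deposited counts went into edgeR 4.0.16 under R 4.3.3 (TMM factors 0.964 to 1.03, filterByExpr by group, which asks for about 10 reads in 2 libraries, quasi-likelihood F-test, all 6 libraries, 1 coefficient per group). A gene passed when its p, adjusted by Benjamini-Hochberg over 21326 genes, was under 0.05. DESeq2 1.42.0 and limma-voom 3.58.1 were alternatives, with RLE factors, library totals, no filter, a replicate block, 2-group fits and each library left out. The edgeR step was tested on simulated data with the same spread for all genes, not taken from these replicates. Changes were placed only in genes above a minimum of reads, so the simulation does not cover members as low as PLT2 and FEZ. Library totals were 31.8 and 18.1 M reads in Col_Kyn, 26.9 and 25.1 M in wei8tar2_MS, and 26.8 and 28.2 M in Col_MS (M standing for 1e6).

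The members and the lists were chosen with earlier results of these data known. All 10 members are named in each comparison against Col_MS. Of the other lists, genes are named that passed the test in any comparison or that were among the 2 highest or 2 lowest by fold change, with the rest as counts and medians, and for members averaging at least 1 CPM among tested genes the 3 nearest in pattern are named.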

Additional observations from a re-analysis of the deposited data

How the results depend on the processing

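The number of genes passing depended on the processing, and the members' adjusted p moved with it as well. In Col_Kyn 78 genes passed, against 735 by DESeq2, 50 by limma-voom, 409 without a filter and 130 with the replicate block. A fit of the 2 groups alone gave 0 by edgeR (2384 at an unadjusted p under 0.05), and leaving out 1 library gave 0 to 1080. In wei8tar2_MS 230 passed, against 1313 by DESeq2, 1113 without a filter, 367 with the replicate block, 352 in the 2 groups alone and 4 to 1719 with 1 library left out. For wei8tar2_MS against Col_Kyn 6 passed, against 55 by DESeq2, 12 with library totals, 26 without a filter, 12 with the replicate block, 11 in the 2 groups alone and 4 to 17 with 1 library left out. The cause was not tested. PLT1 passed in wei8tar2_MS without a filter (edgeR adjusted p = 0.0482), a setting in which 1113 genes passed. PLT1 had reached the main filter only through Col_MS, so its direction is no support. With the replicate block SMB passed in wei8tar2_MS (adjusted p = 0.0451). Deviations of equally numbered libraries correlated at 0.221 (Col_Kyn with Col_MS), 0.0292 (wei8tar2_MS with Col_MS) and -0.0611 (wei8tar2_MS with Col_Kyn), so the numbers were not taken as pairs.

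Small fold changes turned sign. With 1 library left out, WOX5 in Col_Kyn ran between -0.91 and 0.22 (positive without Col_MS replicate 2), SCR in Col_Kyn between -0.082 and 0.157, BBM in wei8tar2_MS between -0.62 and 0.16, and SCR in wei8tar2_MS between -0.0749 and 0.154. In the same fits of wei8tar2_MS against Col_Kyn, PLT2 ran between -0.43 and 0.39, BBM between -0.17 and 0.61, SHR between -0.13 and 0.10, and SCR between -0.0204 and 0.015. With library totals alone SCR was at -0.0439 in Col_Kyn, and in wei8tar2_MS against Col_Kyn SHR was at 0.0337 and SCR at 0.0515. SCR there was at 0.0001 by DESeq2 and with RLE factors and at 0.0007 in the 2 groups alone. The cause of these turns was not tested. Depth limited PLT1, PLT2 and FEZ most: no library outside Col_MS held more than 6 reads of any of them.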
